A study of Mus musculus with 8 samples.

Results

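Podocytes are the epithelial cells that wrap the glomerular capillaries and hold back plasma proteins. Their interlocking foot processes rest on an actin cytoskeleton and are bridged by the slit diaphragm, a junction built around nephrin. They arise from nephron progenitors by way of the renal vesicle and the S-shaped body, and forkhead and LIM-homeodomain transcription factors act early in that course, before most structural genes of the slit diaphragm are switched on. The 31 podocyte structural and regulatory genes described here were given as a named list, and all 31 were found among 21291 gene rows. They were sorted by role into 4 transcription factors, 8 genes of the slit diaphragm, apical surface and their signalling, 12 cytoskeletal genes, 5 genes of matrix, secreted proteins and receptors, and 2 other podocyte-enriched genes.

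Polyadenylated RNA was sequenced from 4 mutant and 4 control mouse kidney pairs at embryonic day E14.5. Mutants carried Six2-GFPcre tg/+, Etv4-/- and Etv5fl/fl, and controls carried Six2-GFPcre tg/+, Etv4+/- and Etv5fl/fl. The series asks what losing the ETS-family factors Etv4 and Etv5 from nephron progenitors does to the kidney. Six2-GFPcre is a transgene with Cre in nephron progenitors, so their descendants, podocytes included, inherit a recombined Etv5, whereas the Etv4 null allele is not limited to any cell type by the labels. Cre and the floxed Etv5 alleles were labelled as present in both groups, which differ by label only at Etv4. Each library was a separate kidney pair, and a level sums over all cells of it, so fewer podocytes and less RNA per podocyte cannot be told apart.

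Etv4 averaged 239 ± 59.8 scaled counts in mutants and 2686 ± 250.4 in controls (mean ± SD, n = 4 each, estimated counts divided by a size factor for depth), and Etv5 averaged 2119.7 ± 511 in mutants and 3614 ± 491 in controls. Total estimated counts were 35308934 to 38824018 in mutants and 15515139 to 39548327 in controls. Control 4 was the shallowest library, and Lars2, a mitochondrial leucyl-tRNA synthetase gene, took 18.4% of its counts, against 0.138% to 0.476% in the other libraries. A list of 4 Y-linked genes summed to 0 to 19.6 scaled counts in mutants and 3586 to 3716 in controls, so genotype and embryo sex cannot be told apart in any result below. Mutants 1 and 2 and controls 1 and 2 share the first number of their library names (called name set A here), and mutant 4 and control 4 share another (name set B). Mutant 3 and control 3 each have a number found in no other library. What the number stands for is not given.

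The promoters of the 2 transcription factor genes with the smallest p in the genotype comparison are shown because Etv4 and Etv5 bind DNA through an ETS domain, whose usual core is GGAA. The letters CCGGAA, searched on both strands, were found in the 250 bases before the start of 2 of 24 member genes with a listed promoter (8.33%), Foxc1 and Inf2, against 12.2% of 27025 promoters. Both sequences are from RefSeq on GRCm38.p6 and run 5′ to 3′, chr13:31806396-31806645 on the plus strand for Foxc1 and chr4:114908899-114909148 on the minus strand for Foxd2. Capitals mark CCGGAA, which begins at position −62 from the listed start of Foxc1 and does not occur in the Foxd2 window.
Foxc1: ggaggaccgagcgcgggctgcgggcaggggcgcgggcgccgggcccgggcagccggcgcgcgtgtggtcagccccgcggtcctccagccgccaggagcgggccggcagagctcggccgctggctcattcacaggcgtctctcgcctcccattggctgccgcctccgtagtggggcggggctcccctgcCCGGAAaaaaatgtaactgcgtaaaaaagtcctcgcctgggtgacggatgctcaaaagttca
Foxd2: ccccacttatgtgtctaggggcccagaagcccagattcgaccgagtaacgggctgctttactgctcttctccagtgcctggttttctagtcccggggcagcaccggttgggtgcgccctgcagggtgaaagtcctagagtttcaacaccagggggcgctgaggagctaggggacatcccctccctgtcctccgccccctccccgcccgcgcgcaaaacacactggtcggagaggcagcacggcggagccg
A match of letters is a description and no evidence of binding.

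None of the 29 members tested passed the threshold over all genes in limma (adjusted p below 0.05), 0 higher and 0 lower, where 0.0801% of 14974 genes tested were called higher and 0.22% lower. At an unadjusted p below 0.05 there were 5 members higher and 4 lower, 31% of those tested, against 12% of all genes, and limma with voom weights called 1 lower, Foxc1. In 4 tested members every mutant lay above every control (13.8%, against 4.17% of all genes), and in 4 every mutant lay below every control (13.8%, against 4.43% of all genes); groups were separate either way in 8.6% of all genes. The first 4 were Synpo, Plce1, Lamb2 and Plekhh2, none of them a transcription factor, and the other 4 were Foxc1, Foxd2, Lmx1b and Dpysl2, of which the first 3 are transcription factors. Of the 29, 24 had a positive fold change, as did 51.7% of all genes. The median log2 fold change was −0.72 over the 4 transcription factors and 0.29 over the 19 slit diaphragm and cytoskeleton members tested, beside 0.0087 over all genes. Nphs1 and Tdrd5 were too low to be tested.

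**Figure D1:**
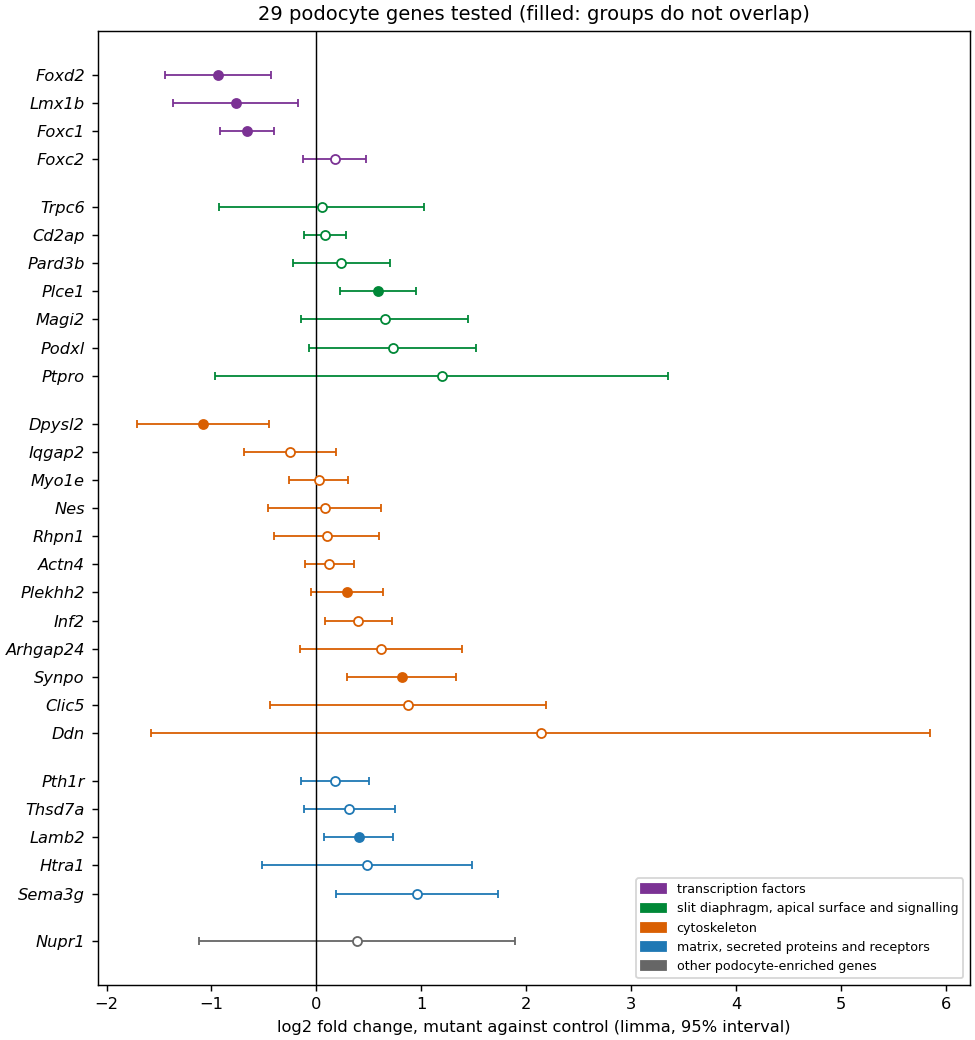
Log2 fold changes of mutant against control kidneys for the 29 members tested, by role, with 95% intervals from limma; filled points are members whose mutant and control libraries did not overlap. Foxd2, Lmx1b and Foxc1 lie below 0, Foxc2 at 0.18, and 17 of the 19 slit diaphragm and cytoskeleton members tested lie above 0.

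Foxc1 (ENSMUSG00000050295, chromosome 13, 31806633 to 31812476, plus strand, GRCm38) encodes a forkhead factor of nephrogenic mesenchyme and podocytes. It had 1719, 1685, 1872 and 1704 scaled counts in mutants 1 to 4, against 3290.2, 2224, 2934 and 2721 in controls 1 to 4. The mutants lay close together and all below the controls, of which control 2 was nearest. The log2 fold change was −0.66 (SE 0.12, 95% interval −0.92 to −0.41, limma adjusted p = 0.058), just outside the threshold. It was −0.67 within name set A and −0.68 between mutant 4 and control 4, and it passed in 6 of 21 other fits, among them those without control 2 (adjusted p = 0.0329) or control 4 (adjusted p = 0.0376).

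Foxd2 (ENSMUSG00000055210, chromosome 4, 114906282 to 114908873, minus strand) encodes another forkhead factor. Its levels were 1371, 1456, 1004 and 881 scaled counts in mutants, against 2913, 2155, 2587 and 1478 in controls. All mutants lay below all controls, with mutant 2 just under control 4, the lowest control. The log2 fold change was −0.94 (SE 0.23, 95% interval −1.45 to −0.43, limma adjusted p = 0.123), and without control 4 it was −1.13 and passed (adjusted p = 0.0265).

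Lmx1b (ENSMUSG00000038765, chromosome 2, 33560965 to 33640511, minus strand) encodes the LIM-homeodomain factor of podocytes that is mutated in nail-patella syndrome. It had 392.3, 411, 391 and 209 scaled counts in mutants, against 805, 482, 685 and 422 in controls. Mutant 4 was the lowest of all libraries, and mutant 2 and control 4 lay next to each other at the border of the groups. The log2 fold change was −0.77 (95% interval −1.36 to −0.18, limma adjusted p = 0.278), and it stayed below 0 in each of 21 other fits without passing in any.

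Foxc2, on chromosome 8 (121116171 to 121118895, plus strand), encodes the forkhead factor most closely related to Foxc1 and acts with it in the podocyte lineage. It had 6167, 6209, 5755 and 4750.3 scaled counts in mutants, against 6002, 5178, 5199 and 3979.8 in controls. The groups overlapped, and the library of name set B was the lowest of each group. The log2 fold change was 0.18 (SE 0.13, 95% interval −0.12 to 0.47, limma adjusted p = 0.644), an interval that does not overlap that of Foxc1; the difference between the genes was not itself tested. Per kilobase of annotated exon, the mean level of Foxc2 was 2099 ± 248.9 scaled counts in mutants and 1868 ± 306 in controls. On that scale Foxd2 averaged 454.5 ± 108 in mutants and 881 ± 239 in controls, Foxc1 299 ± 14.7 in mutants and 478 ± 76.3 in controls, and Lmx1b 71.9 ± 19.4 in mutants and 123 ± 36.4 in controls, so Foxc2 had the highest level of the 4 and Lmx1b the lowest in both groups.

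**Figure D2:**
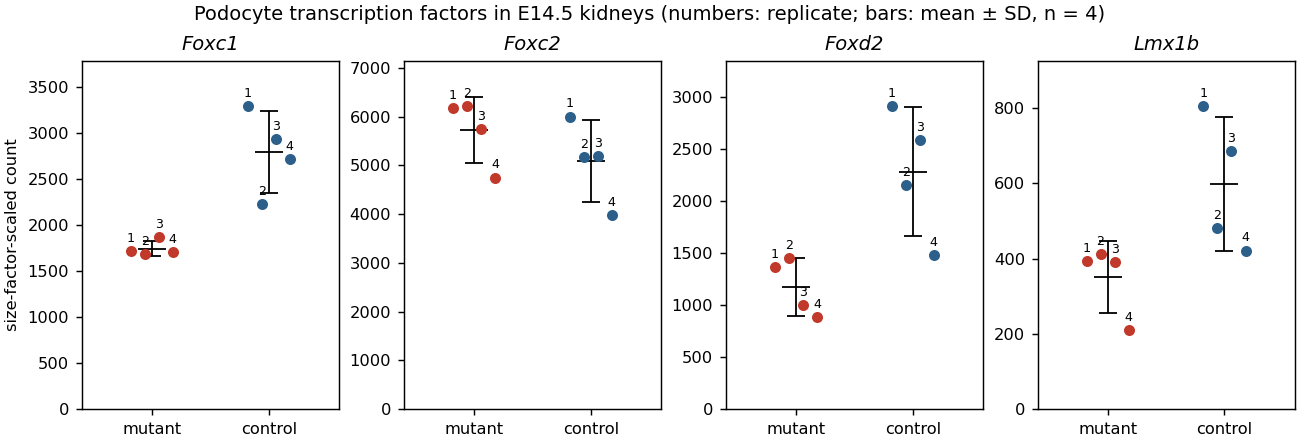
Size-factor-scaled counts of the 4 transcription factors in each mutant and control kidney pair, with replicate numbers beside the points and bars for the mean ± SD (n = 4 each). For Foxc1, Foxd2 and Lmx1b every mutant lies below every control, and for Foxc2 the groups overlap.

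Nephron progenitor markers were lower in the same mutants. Of 9 such genes, 8 had fold changes below 0, beside 7232 of 14974 genes tested. In limma 3 fell past the threshold, beside 0.22% of all genes called lower. They were Osr1 (log2 fold change −1.69, limma adjusted p = 0.0152), Crym (−2.87, adjusted p = 0.0185) and Capn6 (−0.95, adjusted p = 0.0056). The list summed to 5254 to 11031 scaled counts in mutants and 19171 to 34648 in controls, with no marker at 0 in any library. The part of progenitor RNA in the lower Foxc1, Foxd2 and Lmx1b values was not tested.

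Nphs1 (ENSMUSG00000006649, chromosome 7, 30458315 to 30487223, plus strand) encodes nephrin, the adhesion protein that spans the slit diaphragm, and marks differentiated podocytes. It had 1.63, 7.35, 83.6 and 189.0 scaled counts in mutants 1 to 4, against 5.56, 5.53, 4.66 and 66.4 in controls 1 to 4. Mutants 3 and 4 and control 4 stood far above the other 5 libraries, whose estimated counts ran from 2 to 9. With at least 10 scaled counts in only 3 libraries, it fell under the filter of 4 libraries. Tested with no filter, it differed by 1.11 on the log2 scale (SE 1.42; limma adjusted p, 0.805). Mutant 4 exceeded control 4 by 1.49 on the log2 scale, resting on 215 and 24 estimated counts, while name set A differed by −0.48 at counts of 9 or fewer. Nephrin transcripts were barely detected in 5 of the 8 kidney pairs.

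The same 3 libraries were the highest for 8 of 31 members, a pattern picked out after the values were seen; it held for 7 of 29 tested members (24.1%) and for 9.86% of all genes tested. Besides Nphs1 these were Ptpro, Podxl, Ddn, Clic5, Arhgap24, Pth1r and Nupr1. Ptpro, a receptor tyrosine phosphatase of the podocyte apical surface, had 58.7, 87.3, 502 and 892 scaled counts in mutants, against 36.8, 75.8, 67.1 and 437 in controls. Its fold change of 1.19 (log2, SE 0.96; limma adjusted p = 0.665) was small beside the spread within each group. Ddn, encoding the actin-associated protein dendrin, had 3.26, 12.2, 165 and 456 in mutants, against 7.37, 13.4, 0 and 94.1 in controls (log2 fold change 2.14, 95% interval −1.57 to 5.85). Clic5, an intracellular chloride channel family protein that binds ezrin at the foot process, had 141, 135, 482 and 784 in mutants, against 102, 164, 117 and 321 in controls (log2 fold change 0.87, 95% interval −0.44 to 2.19).

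Podxl encodes podocalyxin, the charged sialomucin that keeps foot processes apart. It had 2304, 2189, 4323 and 6436 scaled counts in mutants, against 1434, 2138, 1913 and 3205 in controls, and differed by 0.72 on the log2 scale (95% interval −0.068 to 1.52, limma adjusted p = 0.459). Arhgap24, a GTPase-activating protein for Rac, had 1163, 979, 1992 and 2815 in mutants, against 781, 1142, 800.4 and 1625 in controls (log2 fold change 0.61, SE 0.34, limma adjusted p = 0.519). In both genes mutant 4 was the highest library, and mutants 1 and 2 overlapped the controls. Podxl is also made by endothelial cells, and 9 of 10 endothelial markers had positive fold changes, beside 51.7% of all genes. They summed to 26072, 25735, 28432 and 25331 scaled counts in mutants 1 to 4, and to 18139, 23684, 21644 and 21312 in controls 1 to 4. Among the mutants, that sum was lowest in mutant 4. The endothelial part in the Podxl values was not tested.

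**Figure D3:**
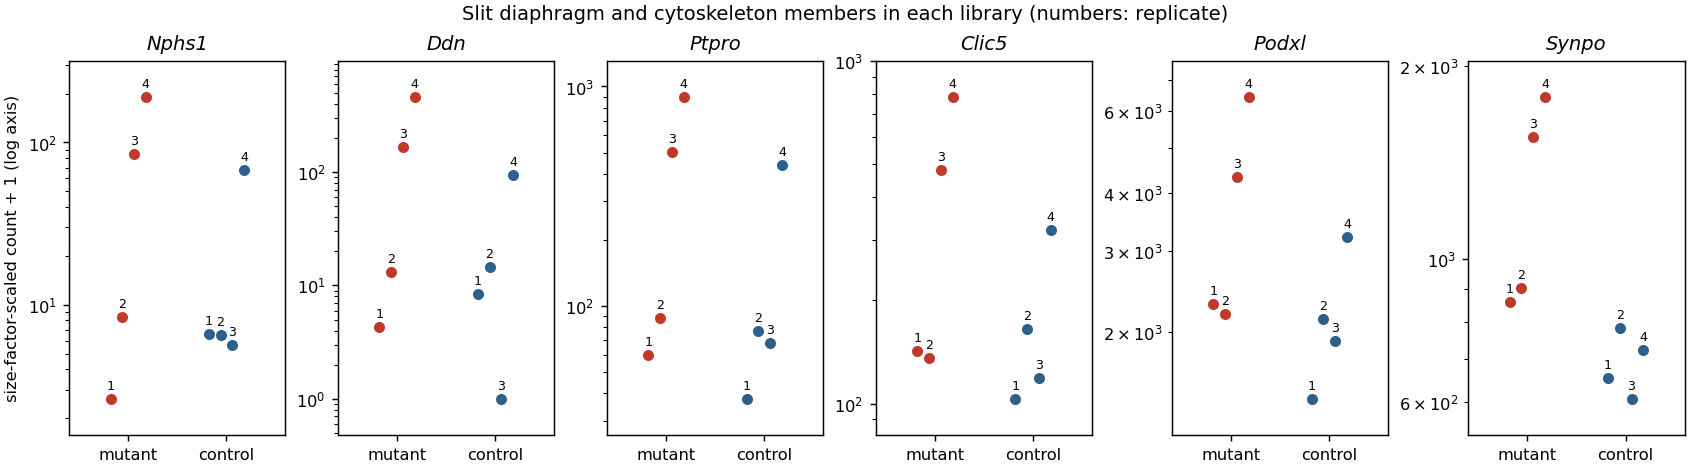
Scaled counts plus 1, on a log axis, of Nphs1, Ddn, Ptpro, Clic5, Podxl and Synpo in each mutant and control library, with replicate numbers beside the points. For the first 5 genes mutants 3 and 4 and control 4 are the highest libraries; for Synpo every mutant lies above every control.

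The summed level of proximal tubule markers was highest in the same libraries. So was each marker on its own except Spp2, which had 0.871 scaled counts in mutant 3 and 14.7 in mutant 2. The 9 markers summed to 688, 875, 4386 and 10437 scaled counts in mutants 1 to 4, against 263, 702, 423 and 3469 in controls 1 to 4, and of the 5 tested all had positive fold changes with none called. Slc34a1, the sodium-phosphate cotransporter of differentiated proximal tubule, was listed at 0 in mutants 1 and 2 and controls 1 and 2. The markers Slc5a2, Fbp1, Spp2 and Slc22a6 were also at 0 in at least 1 library. Within name set A, the tubule sums were 688 and 875 in mutants and 263 and 702 in controls. In that set the log2 differences of the 8 members ran from −0.55 for Ddn, −0.48 for Nphs1 and −0.12 for Nupr1, through 0.0076 for Pth1r, 0.089 for Clic5 and 0.18 for Arhgap24, to 0.36 for Podxl and 0.43 for Ptpro. The part of the tubule markers' difference in the podocyte values was not tested.

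Synpo encodes synaptopodin, which bundles actin in the foot process. It had 858, 902, 1547 and 1784 scaled counts in mutants, against 654, 782, 607 and 722 in controls, a log2 fold change of 0.81 (SE 0.23, 95% interval 0.29 to 1.33, limma adjusted p = 0.191). Every mutant was above every control, control 4 was not among the high libraries, and mutants 3 and 4 were the highest. The difference was 0.30 within name set A and 1.30 between mutant 4 and control 4.

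Plce1, a phospholipase C whose loss in humans causes nephrotic syndrome, had 557, 446, 636 and 434 scaled counts in mutants, against 313, 406, 355 and 296 in controls. The groups did not overlap, mutant 4 being the lowest mutant and control 2 the highest control. It had a log2 fold change of 0.59 (95% interval 0.23 to 0.95, limma adjusted p = 0.171), and it was similar in size within name set A (0.48) and between mutant 4 and control 4 (0.55). Sema3g, a secreted semaphorin, had 247, 262, 612 and 514 in mutants, against 118, 199.8, 238 and 252 in controls. Mutant 1 lay below control 4, and the log2 fold change was 0.96 (95% interval 0.19 to 1.73, limma adjusted p = 0.297).

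Lamb2 encodes the laminin beta chain of the mature glomerular basement membrane. It had 2608, 2651, 3225 and 3638 scaled counts in mutants, against 2444, 2546, 2430.2 and 1760.2 in controls, with a log2 fold change of 0.40 (95% interval 0.075 to 0.73, limma adjusted p = 0.307). The groups were separate but nearly touched between control 2 and mutant 1, and within name set A the difference was 0.076. Inf2, a formin mutated in familial focal segmental glomerulosclerosis, had 1037, 1079.8, 1126 and 1161 in mutants, against 942, 727, 1050.2 and 673 in controls (log2 fold change 0.40, SE 0.14, limma adjusted p = 0.295), and control 3 lay among the mutants. Plekhh2, a podocyte protein that binds actin, had 1161, 1128, 1203 and 1136 in mutants, against 1070.3, 1053, 1073 and 664 in controls (log2 fold change 0.29, SE 0.15, limma adjusted p = 0.495). Control 4 was far below the other controls in Plekhh2, and without it the log2 fold change was 0.12.

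Dpysl2, a microtubule-binding protein known from axon growth, lay on the other side of 0. It had 878, 807, 910.1 and 635 scaled counts in mutants, against 1646, 1031, 1548 and 3098 in controls, a log2 fold change of −1.08 (95% interval −1.71 to −0.45, limma adjusted p = 0.158). All mutants were below all controls, and control 4 was by far the highest library. Without control 4 the log2 fold change was −0.78. Neurons make much Dpysl2. Of 6 neuron and glia markers tested, 4 had negative fold changes, beside 7232 of 14974 genes tested, and Th was at 0 in mutants 1 and 4. The 9 markers measured summed to 476, 818, 428 and 749 scaled counts in mutants 1 to 4. In controls 1 to 4 they summed to 842, 782, 924 and 908. The part of these markers' cells in the Dpysl2 values was not tested.

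Other cytoskeletal members, several of them widely expressed, had fold changes near 0. Actn4, the actin crosslinker alpha-actinin-4, averaged 20477 ± 820.1 scaled counts in mutants and 18905 ± 2445 in controls (SD, n = 4 each), with a log2 fold change of 0.12 (95% interval −0.11 to 0.36). Per kilobase of exon it had the highest mean level of all 31 members, 3342 ± 134 scaled counts in mutants and 3086 ± 399 in controls. Myo1e, an unconventional myosin of foot processes, had a log2 fold change of 0.020 (95% interval −0.26 to 0.30), and Nes, the intermediate filament protein nestin, one of 0.081 (−0.46 to 0.62), which turned to −0.20 without control 4, its lowest library. Rhpn1, encoding rhophilin-1, stood at 0.098 (−0.40 to 0.60). Iqgap2, a scaffold related to the nephrin-binding IQGAP1, averaged 939 ± 53.4 in mutants and 1154 ± 315 in controls. Its log2 fold change of −0.25 became −0.47 without control 4, its lowest library, and then passed (limma adjusted p = 0.0441). The difference was −0.37 within name set A but 0.35 between mutant 4 and control 4.

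Among the remaining slit diaphragm members, Cd2ap, an adaptor that links nephrin to actin, averaged 2763 ± 309 scaled counts in mutants and 2603 ± 133 in controls (log2 fold change 0.081, 95% interval −0.12 to 0.29). Magi2, a scaffold that binds nephrin, averaged 119 ± 57.1 in mutants and 71.8 ± 21.0 in controls (0.65, −0.15 to 1.45). Pard3b, a polarity protein, averaged 656 ± 211 in mutants and 542 ± 79.0 in controls (0.24, −0.22 to 0.70). Trpc6, the calcium channel mutated in familial focal segmental glomerulosclerosis, was low, with 17.6 to 39.2 in mutants and 15.8 to 49.0 in controls (0.049, −0.93 to 1.03). Intervals for Cd2ap excluded a change of 0.3 log2 units either way, while those for Magi2 and Trpc6 left room for more than a doubling.

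Pth1r, the parathyroid hormone receptor, which proximal tubule cells also express, averaged 2373 ± 457 scaled counts in mutants and 2084 ± 248 in controls (log2 fold change 0.18, 95% interval −0.15 to 0.50). Thsd7a, a membrane antigen in some membranous nephropathy, averaged 297 ± 57.5 in mutants and 239 ± 49.4 in controls (0.31, −0.12 to 0.75), and Htra1, a secreted serine protease, 62.3 ± 26.3 in mutants and 43.5 ± 15.8 in controls (0.48, −0.52 to 1.48). Nupr1, a stress-induced chromatin protein, had 7.34 to 53.6 in mutants and 7.90 to 19.4 in controls (0.39, −1.11 to 1.90). Tdrd5, a Tudor-domain protein known from the germline, was at 0 in mutant 1 and in controls 1 and 3, and was highest in mutant 4, at 33 estimated counts. It reached 10 scaled counts in 2 libraries and so was not tested.

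**Figure D4:**
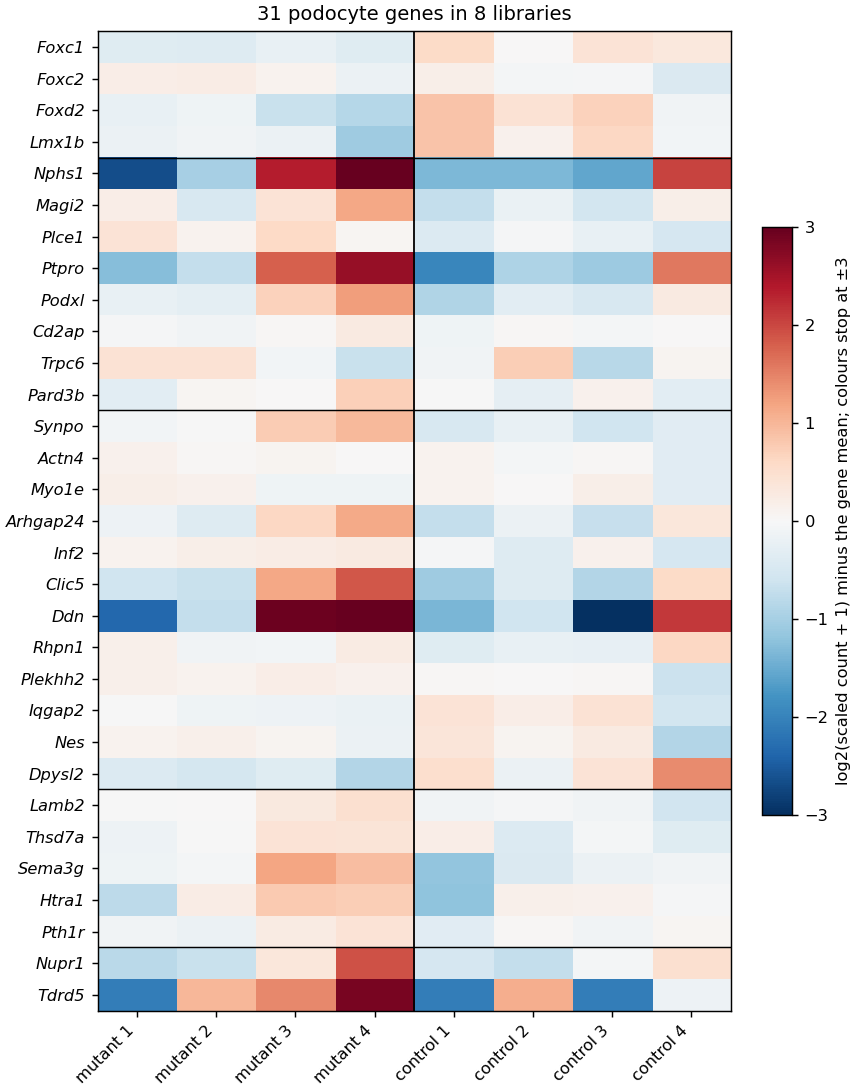
Level of each of the 31 members in each library, as log2(scaled count + 1) minus the gene's mean over 8 libraries, with mutants left of controls and roles separated by lines; colours stop at ±3. Nphs1, Ptpro and Ddn are high in mutants 3 and 4 and control 4, while Foxc1, Foxd2 and Lmx1b are below their mean in all mutants.

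Averaged over the 4 transcription factors, the log2 level relative to each gene's mean was −0.14, −0.10, −0.24 and −0.62 in mutants 1 to 4, against 0.62, 0.13, 0.42 and −0.075 in controls 1 to 4. Over the 20 slit diaphragm and cytoskeleton members it was −0.31, −0.20, 0.56 and 0.83 in mutants, against −0.40, −0.21, −0.50 and 0.24 in controls. The transcription factor average was below 0 in every mutant. The structural average was above 0 in mutants 3 and 4 and control 4 only. In control 4 that average rested on a few members far above their means: Ddn (2.13), Nphs1 (2.02), Ptpro (1.59) and Dpysl2 (1.41). Nes, Plekhh2, Iqgap2, Inf2, Plce1, Actn4, Synpo, Myo1e and Pard3b lay below theirs in control 4. Single members differed from their average in mutants too. Foxc2 was above its mean in mutants 1 to 3, and Plce1 in every mutant. The first average minus the second was 0.18, 0.098, −0.80 and −1.45 in mutants, against 1.02, 0.34, 0.93 and −0.32 in controls. It averaged −0.49 ± 0.77 in mutants and 0.49 ± 0.62 in controls (SD, n = 4 each), and control 4 overlapped the mutants. These averages weigh members of a chosen list and carry no test.

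**Figure D5:**
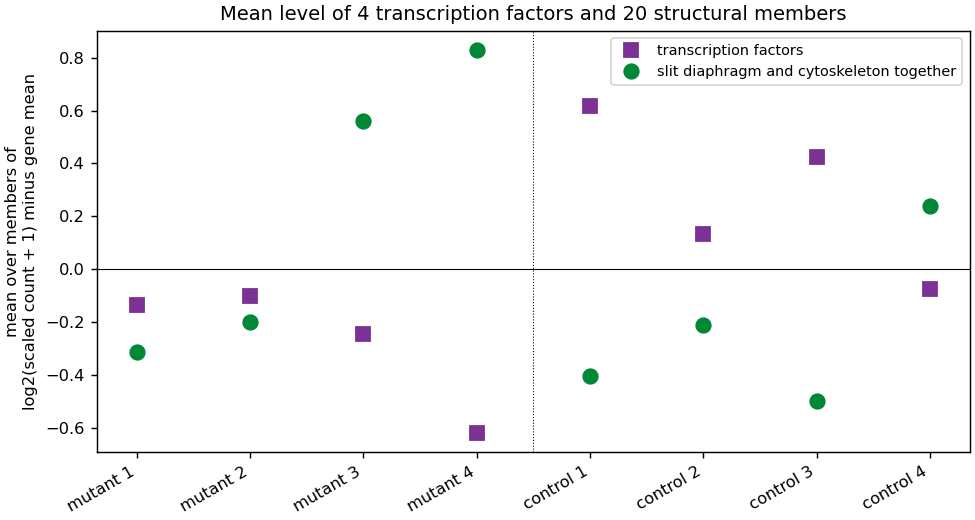
Mean over the 4 transcription factors (squares) and over the 20 slit diaphragm and cytoskeleton members (circles) of log2(scaled count + 1) minus the gene mean, in each mutant and control library. Circles lie above squares in mutants 3 and 4 and control 4, and below them in the other 5 libraries.

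The authors' deposited table of 644 genes, which is named as a subset and equals 3.02% of gene rows, holds 6 of the 31 members. Of them, 4 are given by the authors' deposited table as lower in mutants, namely Foxd2 (log2 fold change −1.11), Foxc1 (−0.69), Dpysl2 (−0.80) and Lmx1b (−0.90). The authors' deposited table gives Synpo (0.90) and Sema3g (1.14) as higher, with adjusted p from 6.8e-08 for Foxd2 to 0.0156 for Sema3g. Nphs1 is not listed in it. In limma with control 4 left out, the log2 fold changes were −1.13 for Foxd2, −0.67 for Foxc1, −0.78 for Dpysl2, −0.92 for Lmx1b and 0.84 for Synpo. With all libraries they were −0.94, −0.66, −1.08, −0.77 and 0.81. For each of these genes the authors' value lay nearer the fit without control 4. The authors' mean normalized signals of the 6 members also keep the proportions of mean scaled counts taken without control 4. Dpysl2, by far highest in control 4, is given 1234.5, beside 1182.1 for Synpo. Control 4 thus appears to be left out of the authors' table, which no formal test examined.

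Of 48 further podocyte genes measured, 36 had positive fold changes, beside 51.7% of all genes, with a median of 0.22. In limma 0 were called higher and 1 lower, beside 0.0801% and 0.22% of all genes. At an unadjusted p below 0.05, 14 were higher and 3 lower, 35.4% of the list, beside 12% of all genes. Robo2, a Slit receptor that binds nephrin through an adaptor and is also expressed by nephron progenitors, fell, with 1998, 1974, 1648 and 1898 scaled counts in mutants, against 6264, 4346, 4907 and 2928 in controls (log2 fold change −1.25, SE 0.20, limma adjusted p = 0.0399). Leaving out any 1 library other than control 4 ended that call (adjusted p 0.0776 to 0.168). Crb2, an apical polarity protein of podocytes chosen after its values were seen, had 425, 356, 697 and 759.5 in mutants, against 214, 220.4, 211 and 354 in controls, and did not pass (log2 fold change 1.12, limma adjusted p = 0.124).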

How the data were processed

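RNA was measured in 4 mutant and 4 control E14.5 kidney pairs by polyA-selected paired-end sequencing, per the labels' protocols, and samples were grouped by title. The submitters' processing notes name kallisto 0.46.0, DESeq2 1.40.2, fastp 0.23.2 and build mm10, without roles. The log2 values the authors deposited, named as normalized, are log2 of an estimated count plus 1 without depth correction, judged from the values (73.4% were whole within 1e-06 after reversal). Reversing the log gave estimated counts, which were scaled by size factors (median of ratios), from 0.361 in control 4 to 1.27 in control 2. The 14974 genes reaching 10 scaled counts in 4 or more libraries were fitted on log2(scaled count + 1) with limma 3.58.1 in R 4.3.3 (eBayes with trend), two-sided, Benjamini-Hochberg adjusted; fold changes are on that scale, which understates those of low genes. In the comparison table the authors deposited are a mean normalized signal, a log2 fold change with SE, a score (test statistic) and p-values. The members and lists were chosen with earlier results of these data known. Given in every library were at least Nphs1, the transcription factors and the 8 members with the smallest p; the other podocyte gene named by rule is the one past the threshold. Positions are from GENCODE M21 (GRCm38), and exon length is the union of its exons, which may differ from the lengths the authors used. A few genes of the lists are not reported here. The fit was tested on simulated data. Each library was a separate kidney pair per the labels, so p-values measure the spread between pairs, taken as independent; the labels' protocols call the controls littermates without saying which embryos shared a litter. The depth limits the precision for members under about 10 counts. Alternatives covered scaling, pseudocount, filter, variance model, blocks, threshold and libraries left out. Figures used matplotlib 3.10.9 in Python 3.11.15.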

Additional observations from a re-analysis of the deposited data

Results flagged for a closer look

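In 7 of 62 sets of 4 libraries (31 members in each genotype), 1 library stood apart from the other 3 by a Dixon test at 95%. Chance alone does so in about 1 of 20 sets that are independent and normally distributed. Sets of a genotype here share the same 4 libraries, and some members have few counts, so that rate need not hold. Control 4 was that library in 6 of the 7. It was high for Nphs1 (66.4 scaled counts, against 4.66 to 5.56 in the other controls), Ptpro (437, against 36.8 to 75.8), Ddn (94.1, against 0 to 13.4) and Rhpn1 (329, against 168 to 184). It was low for Plekhh2 (664, against 1050 to 1070) and Lamb2 (1760, against 2430 to 2550). Mutant 4 was low for Lmx1b (209, against 391 to 411 in the other mutants).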

How the results depend on the processing

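No member was called higher under any alternative, and Foxc1, Foxd2, Lmx1b and Dpysl2 kept negative fold changes and Synpo, Plce1, Sema3g and Lamb2 positive ones under each. The count of members called lower, 0 in the report, was 1 with upper-quartile scaling, with voom or at an adjusted p below 0.1 (Foxc1 each time), 2 without name set B, and 0 to 3 with 1 library left out. The 3 without control 4 were Foxc1, Foxd2 and Iqgap2. Other podocyte genes called higher, 0 in the report, numbered 1 with voom, with the library-name number as a block or at an adjusted p below 0.1, 3 without name set B, and 0 to 3 with 1 library left out. Those called lower, 1 in the report, numbered 0 with total-count scaling, no depth correction, no filter, no trend or the library-name block, 2 at an adjusted p below 0.1, and 0 to 1 with 1 library left out. The cause of these differences was not tested. With the library-name number as a block, mutant 3 and control 3 each fill a block alone and add nothing to the fold change.

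With the title's replicate number as a block, 2 members were called lower (Foxc1 and Foxd2) and 4 other podocyte genes higher. Deviations of same-numbered mutants and controls had correlations of 0.266, 0.0983, −0.126 and 0.348. Mutants 1 and 4 correlated most with their same-numbered control, but mutant 2 with control 1 (0.236) and mutant 3 with control 4 (0.179). These values do not settle whether the numbers pair the samples. Total-count scaling put the median log2 fold change of all genes at 0.14 and no depth correction put it at 0.48, beside 0.0087 in the report. With no depth correction Iqgap2 stood at 0.22, below the median of 0.48. Other sign changes were in members near 0: Cd2ap (−0.017) and Nes (−0.10) in name set A alone; Pard3b (−0.023), Myo1e (−0.041) and Nes (−0.13) without name set B; Myo1e (−0.017) with voom; and Trpc6 (−0.18) with the library-name block. With 1 library left out, Trpc6 ran from −0.22 to 0.30, Myo1e from −0.085 to 0.080, Rhpn1 from −0.0052 to 0.32 and Nes from −0.20 to 0.21. Nphs1, Tdrd5, Ddn and Nupr1 rest on few counts in most libraries, so their differences are the least certain.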
